A study of Mus musculus with 6 samples.

Results

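Genes of the smooth muscle type contractile cytoskeleton were followed in mouse embryonic stem cells given a vector with a short hairpin RNA (shRNA) directed at Chd1, or a control vector. Members were chosen by symbol, with earlier results of these data known. They are 10 genes: Acta2, Actg2, Tpm1, Tpm2, Cald1, Myl9, Tagln, Tagln2, Cnn1 and Cnn2. The gene lists used below were chosen with the same knowledge, so counts over members and lists are descriptions and not tests. GEO's annotation of the array names 25 of its 45281 probes for the 10 members. Of those, 12 probes of 8 genes passed the detection filter (detected at p under 0.05 by 3 or more of the 6 arrays), out of 16018 probes and 9507 named genes that passed in all. Cald1 and Cnn1 did not pass on any probe. Chd1 shRNA cells and control cells were each represented by 3 samples, with 1 Illumina bead array per sample. Both groups shared their culture on fibroblasts inactivated with mitomycin C, with LIF and 15% serum, the delivery of pHYPER vectors by electroporation, and puromycin from 24 h after it, applied for 48 h. Strain, line and passage of the cells, the hairpin sequence and the content of the control vector are not given in the sources used here. Separate cultures are not stated for the samples, and each p-value therefore reflects sample-to-sample spread that may be purely technical. In RNA from a whole dish, more cells of one type and more RNA per cell cannot be told apart, and feeder RNA may be part of it.

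In smooth muscle, thin filaments of actin slide along myosin. Tropomyosin, caldesmon and calponin lie on the actin filament and control its contact with myosin, and phosphorylation of the regulatory light chain switches the motor on. Many of these genes are controlled by serum response factor (SRF), which binds the CArG box with cofactors of the myocardin family. Smooth muscle is their best known site of expression, but fibroblasts and myofibroblasts also make several of the proteins.

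The promoters of 3 members are shown because they carry the CArG box or a near match to it, and a relation to the array values was not tested. Each line is the 250 bases before a RefSeq transcription start in GRCm38.p6, written from 5′ to 3′ on the gene's strand, at chr19:34255374-34255623 on the minus strand for Acta2, chr2:156775214-156775463 on the plus strand for Myl9 and chr10:79988350-79988599 on the plus strand for Cnn2. Capitals mark the CArG box and any sequence that departs from it by 1 G or C among its 6 inner letters.
Acta2 promoter: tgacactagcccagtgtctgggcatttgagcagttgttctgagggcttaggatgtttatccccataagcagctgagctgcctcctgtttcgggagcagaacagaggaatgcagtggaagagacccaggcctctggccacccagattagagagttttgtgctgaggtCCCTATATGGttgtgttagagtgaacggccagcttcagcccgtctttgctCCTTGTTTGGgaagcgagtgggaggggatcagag
Myl9 promoter: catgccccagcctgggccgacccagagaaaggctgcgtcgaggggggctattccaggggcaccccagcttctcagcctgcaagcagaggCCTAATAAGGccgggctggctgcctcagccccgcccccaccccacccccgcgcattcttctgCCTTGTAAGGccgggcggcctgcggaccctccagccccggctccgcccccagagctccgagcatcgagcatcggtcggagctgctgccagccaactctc
Cnn2 promoter: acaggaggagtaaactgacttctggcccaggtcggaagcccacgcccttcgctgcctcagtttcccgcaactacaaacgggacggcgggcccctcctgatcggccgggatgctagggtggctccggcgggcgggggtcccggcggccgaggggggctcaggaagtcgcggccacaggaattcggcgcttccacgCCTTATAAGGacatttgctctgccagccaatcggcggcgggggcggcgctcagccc
Because the CArG box reads alike on both strands, 1 search covered both. Acta2 held 2 near matches, CCCTATATGG and CCTTGTTTGG, which end 74 and 24 bases before the start. Myl9 held the CArG box CCTAATAAGG, ending 151 bases before the start, and the near match CCTTGTAAGG. The single match of Cnn2 was the CArG box CCTTATAAGG, ending 46 bases before the start. No match lay in the windows of Tpm1, Tpm2, Cald1, Tagln2 or Cnn1, and windows of Actg2 and Tagln were not used here. Of all 32851 windows of this length, 1.47% held a CArG box and 8.59% held a box or a near match. These matches are descriptions of letters and not of binding.

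The arrays detected 16285 to 17391 probes in Chd1 shRNA samples and 15663 to 15925 in control samples. Chd1, the target and a chromatin remodeller gene, had log2 intensities of 5.95, 5.95 and 5.29 in Chd1 shRNA replicates 1, 2 and 3. In control replicates 1, 2 and 3 they were 7.70, 8.81 and 6.91, so the groups did not overlap. Control replicate 3 was the control closest to the Chd1 shRNA arrays. The log2 fold change of Chd1 was -2.07 (SE 0.43), limma's adjusted p being 0.196. The size of this value depended on the processing: it was -1.18 without background correction, -1.20 with the authors' processed values, -1.31 with the mean of the gene's probes, and between -2.55 and -1.59 with 1 array left out. Of 20 pluripotency markers, 19 passed the filter, including Pou5f1 and Nanog, which define these cells. Their log2 fold changes were -0.26 for Pou5f1 and 0.17 for Nanog. Over the 19 markers the values ran from -1.19 (Tcl1) to 0.48 (Dppa2), with 3 above 0 and 16 below (50.2% of all genes were above 0). Over all 11600 genes tested, limma with Benjamini-Hochberg adjustment called 0 genes at an adjusted p under 0.05. Without adjustment, 1268 genes had p under 0.05: 534 (4.6%) with higher and 734 (6.33%) with lower values in Chd1 shRNA. The groups occupied different runs of adjacent chip positions, so an effect of position cannot be told apart from one of group. With 3 arrays a side, precision is limited by their number.

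None of the 8 members tested differed between the groups at an adjusted p of 0.05 (0% of all genes were called), and adjusted p-values by limma ran from 0.453 to 0.850. Acta2, Actg2, Tpm1, Tpm2, Myl9 and Tagln had log2 fold changes (Chd1 shRNA minus control) between 0.62 and 1.20, and Tagln2 and Cnn2 had values of -0.28 and 0.10. These 6 genes are described side by side below because of those values, and their grouping is a description that was not tested. The median over the 8 members was 0.88, beside 0.0012 over all genes tested. As the members were chosen with earlier results known, this median and the shares that follow are descriptions. In 7 of 8 members the value was above 0, as in 50.2% of all genes. At an unadjusted p under 0.05 there was 1 member, Acta2, with 4.6% of all genes past that mark in the same direction. At least 2-fold higher were 2 members, Acta2 and Myl9, where 0.819% of all genes reached that size. For 0 of 8 members were the groups free of overlap, where 6.87% of all genes did not overlap and were higher and 9.18% did not overlap and were lower.

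**Figure D1:**
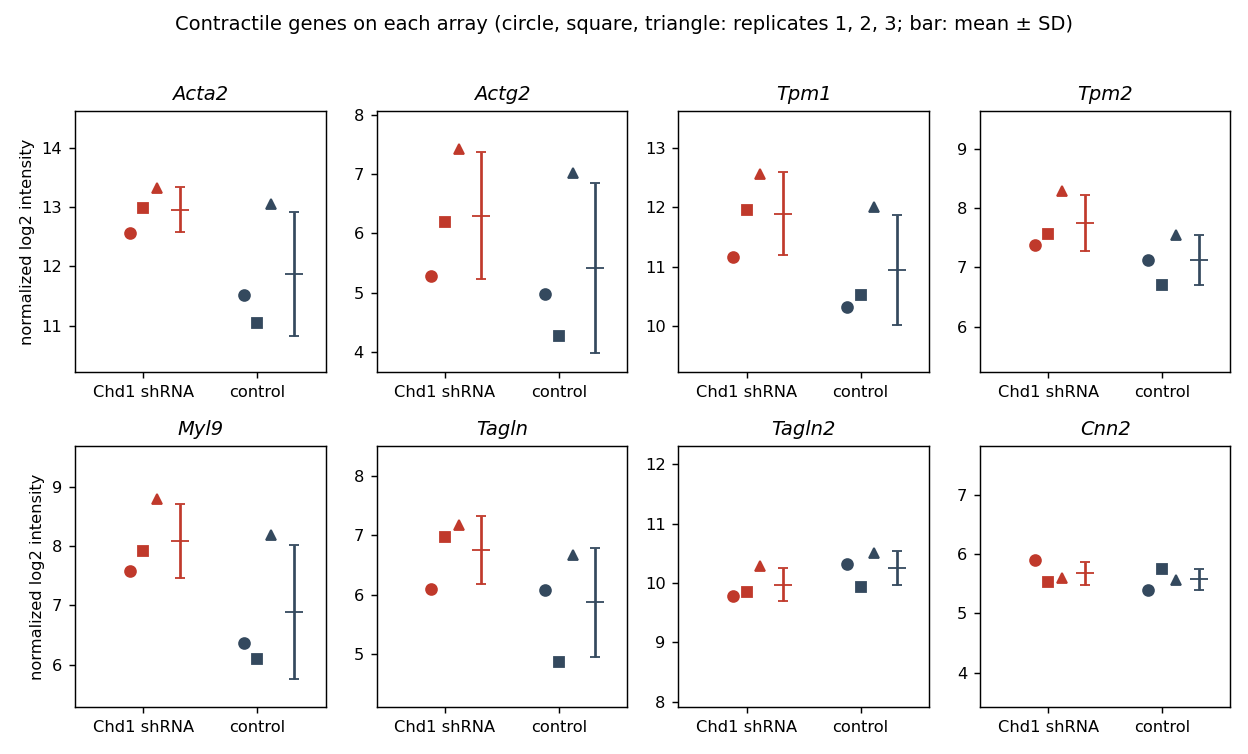
Normalized log2 intensity (vertical axis, each panel spanning the same range) of the 8 tested members on each array, with Chd1 shRNA left of control and the mean ± SD beside the points. In Acta2, Actg2, Tpm1, Tpm2, Myl9 and Tagln the triangle of control replicate 3 lies among the Chd1 shRNA points, 13.06 for Acta2, while Tagln2 and Cnn2 show little spread.

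Among the thin filament genes, Acta2 encodes smooth muscle alpha actin, the main actin of vascular smooth muscle and of myofibroblasts. On its representing probe the unnormalized intensity was 6561, 7954 and 12090.2 in Chd1 shRNA replicates 1, 2 and 3, against 3707, 1799 and 6628 in control replicates 1, 2 and 3. After normalization the log2 intensities were 12.56, 12.99 and 13.32 in Chd1 shRNA and 11.51, 11.05 and 13.06 in control arrays. Control replicates 1 and 2 were below every Chd1 shRNA array, and control replicate 3 was above 2 of the 3. The log2 fold change was 1.09 (SE 0.47, n = 3 per group, 95% interval 0.03 to 2.15), a 2.12-fold higher level, with an adjusted p of 0.453 by limma. An exact two-sided permutation test gave p = 0.3, where 0.1 is the smallest that 3 arrays against 3 allow. The other 3 Acta2 probes past the filter gave 1.11, 1.01 and 0.87 in a fit of all 16018 probes, with SEs of 0.46 to 0.53 over the 4 probes. The 4 probes share 1 target RNA and the same arrays, so these SEs do not measure how far the probes differ from each other. A further 2 Acta2 probes, 1 of them annotated to a cDNA clone, had no detection on any array.

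Tpm1 encodes an alpha tropomyosin that many cell types make in different splice forms. It had log2 intensities of 11.16, 11.96 and 12.56 in Chd1 shRNA and 10.32, 10.52 and 12.01 in control arrays. Control replicate 3 again lay inside the Chd1 shRNA range, and the other controls lay below it. The log2 fold change was 0.94 (SE 0.48, adjusted p = 0.497 by limma, n = 3 per group), and the other Tpm1 probe past the filter gave 0.85 (SE 0.50). Tpm2, a beta tropomyosin gene, had 7.38, 7.57 and 8.28 in Chd1 shRNA and 7.12, 6.70 and 7.54 in control arrays. Its difference was the smallest of the 6 genes, 0.62 (SE 0.29, adjusted p = 0.478 by limma), and control replicate 3 overlapped Chd1 shRNA replicate 1.

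Actg2, the gamma actin of visceral smooth muscle, was close to background. Its probe was detected on 3 Chd1 shRNA arrays and on 2 of 3 control arrays, control replicate 2 being the one without detection. Log2 intensities were 5.29, 6.19 and 7.41 in Chd1 shRNA and 4.98, 4.26 and 7.02 in control arrays. With a range of 3.15 over the 6 arrays, the log2 fold change of 0.87 had an SE of 0.72 and an adjusted p of 0.642 by limma. The 95% interval ran from -0.76 to 2.51.

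Myl9 encodes the regulatory light chain whose phosphorylation starts contraction in smooth muscle. Log2 intensities were 7.58, 7.91 and 8.78 in Chd1 shRNA and 6.37, 6.10 and 8.18 in control arrays. Here, as for Acta2, control replicates 1 and 2 were below every Chd1 shRNA array and control replicate 3 was above 2 of them. Its log2 fold change was the largest of the members, 1.20 (SE 0.53, n = 3 per group, a 2.30-fold higher level), with an adjusted p of 0.457 by limma and an exact permutation p of 0.3.

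Of the calponin and transgelin genes, Tagln (transgelin, or SM22 alpha, an actin-bundling protein and an early smooth muscle marker) had a difference close to that of Actg2. Its log2 intensities were 6.10, 6.96 and 7.18 in Chd1 shRNA and 6.08, 4.86 and 6.67 in control arrays, a log2 fold change of 0.88 (SE 0.45, adjusted p = 0.500 by limma, n = 3 per group). Control replicate 2 was the lowest of all arrays, and control replicate 1 lay just below Chd1 shRNA replicate 1. The value of control replicate 2, 4.86, was at the edge of detection, as the lowest detected signal of that array was 4.85. Without background correction the log2 fold change of Tagln was 0.39. A second Tagln probe had no detection on any array.

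Tagln2, the broadly expressed relative of transgelin, had log2 intensities of 9.79, 9.85 and 10.29 in Chd1 shRNA and 10.32, 9.94 and 10.50 in control arrays. The log2 fold change of -0.28 (SE 0.22, 95% interval -0.78 to 0.22) had an adjusted p of 0.628 by limma. Its groups overlapped too, because Chd1 shRNA replicate 3 was above control replicate 2. Cnn2, the calponin of nonmuscle cells, had 5.90, 5.54 and 5.60 in Chd1 shRNA and 5.40, 5.76 and 5.56 in control arrays. Its log2 fold change of 0.10 (SE 0.19, 95% interval -0.32 to 0.53) had an adjusted p of 0.850 by limma. Cnn2 thus had the narrowest range of the 8 genes, 0.50 over the 6 arrays. Its probe was detected on all 6 arrays but was dim, with unnormalized intensities of 115 to 152 beside array medians of 97 to 114. The range and the difference of Cnn2 are therefore those of a value close to background. In the fit of all probes, 11 of the 12 member probes were above 0 (50.5% of all probes were), 2 had an unadjusted p under 0.05 with higher values (4.71% of all probes, and 5.7% in the other direction), and 0 had groups free of overlap (6.92% of all probes higher and 8.58% lower). Of all probes 0.762% were at least 2-fold higher, and 0 member probes passed the adjusted threshold by limma. Whether Tagln2 and Cnn2 differ from the other members in their response was not tested.

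**Figure D2:**
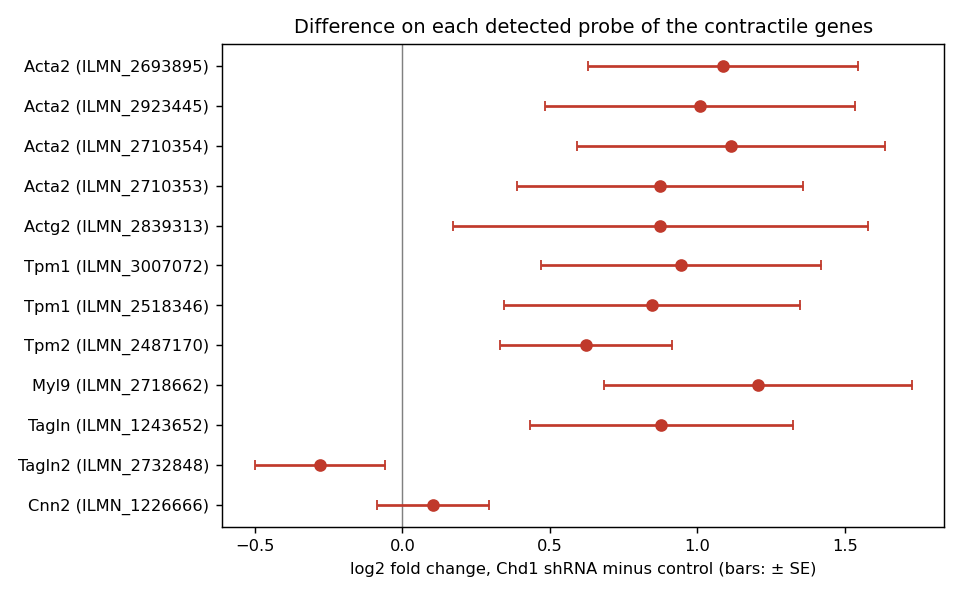
Log2 fold change, Chd1 shRNA minus control, with its SE from limma for each of the 12 member probes past the detection filter (n = 3 arrays per group). The 4 Acta2 probes lie between 0.87 and 1.11, the Tagln2 probe at -0.28 and the Cnn2 probe at 0.10.

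Cald1 and Cnn1 gave no tested value. Cald1 encodes caldesmon, an actin-binding inhibitor of the myosin motor, and its 5 probes were each detected on at most 2 of 6 arrays. Probe ILMN_2804261 of Cald1 was detected on 2 Chd1 shRNA arrays and no control array, with log2 intensities of 4.59, 5.57 and 4.82 in Chd1 shRNA and 4.59, 4.39 and 4.39 in control arrays. The mean of the Chd1 shRNA arrays, including the array without detection, was 1.11-fold above the lowest detected signal of the control arrays, with no test. It rests largely on Chd1 shRNA replicate 2, at 5.57. Probe ILMN_1254073 of Cald1 went the other way, with detection on 0 Chd1 shRNA arrays and 2 control arrays. The mean of its control arrays, also including an array without detection, was 1.04-fold above the lowest detected signal of the Chd1 shRNA arrays. Cnn1, the smooth muscle calponin and a marker of the differentiated state, has 1 probe, which was detected on 1 Chd1 shRNA array. All 13 member probes outside the filter had log2 intensities between 4.19 and 5.57, near background.

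The spread within each group was large for 5 of the 6 genes with the larger differences. In control arrays the SD was 1.05 for Acta2, 1.43 for Actg2, 0.92 for Tpm1, 0.92 for Tagln and 1.13 for Myl9, beside a median of 0.247 over all genes tested. At least 98.6% of genes had a smaller control SD than each of these 5. Chd1 shRNA arrays had SDs of 0.38 for Acta2, 1.07 for Actg2, 0.70 for Tpm1, 0.57 for Tagln and 0.62 for Myl9, beside a median of 0.230. For all 5 the difference between the groups was smaller than or close to the control SD. Tagln2 and Cnn2 were near the typical gene, with control SDs of 0.29 and 0.18. In 7 of 8 members control replicate 3 was the highest control (34.4% of all genes), and in 7 of 8 Chd1 shRNA replicate 1 was the lowest of its group (33.6% of all genes). Both held together for 7 of 8 members and for 17.4% of all genes, the exception being Cnn2. Control replicate 3 was above Chd1 shRNA replicate 1 in those 7 members.

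The order of the arrays was shared among the members. Taking the median over the 8 members of the log2 intensity relative to each gene's 6-array mean, the level was -0.13, 0.37 and 0.89 in Chd1 shRNA replicates 1, 2 and 3 and -0.59, -1.13 and 0.49 in control replicates 1, 2 and 3. The arrays thus differed among themselves within a group by more than the group averages of this level did, 0.79 apart. Over the 6 arrays, as a description of values that share arrays and normalization, each of the 6 genes with the larger differences correlated with the mean of the other members at an r of 0.90 to 0.98. For Tagln2 and Cnn2 this r was 0.30 and -0.21.

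Because the controls were so unequal, the size of the difference depended on which arrays were included. Without control replicate 3 the log2 fold change of Acta2 was 1.68 and that of Myl9 1.87, and the median of the 8 members was 1.39. Without control replicate 2 they were 0.67, 0.82 and 0.39. Chd1 shRNA replicates mattered as well, with a median of 1.24 without replicate 1 and 0.48 without replicate 3. Leaving out control replicate 3 put 6 members at an unadjusted p under 0.05, leaving out Chd1 shRNA replicate 1 put 5 there, and leaving out any one of the other 4 arrays put 0 there. The count over all genes also depended on the array left out. Without Chd1 shRNA replicate 1 it was 1911, 48.4% of them higher, against 1268 with all 6 arrays. No member passed the adjusted threshold with any array left out, and the lowest adjusted p by limma for Acta2 in these fits was 0.136.

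**Figure D3:**
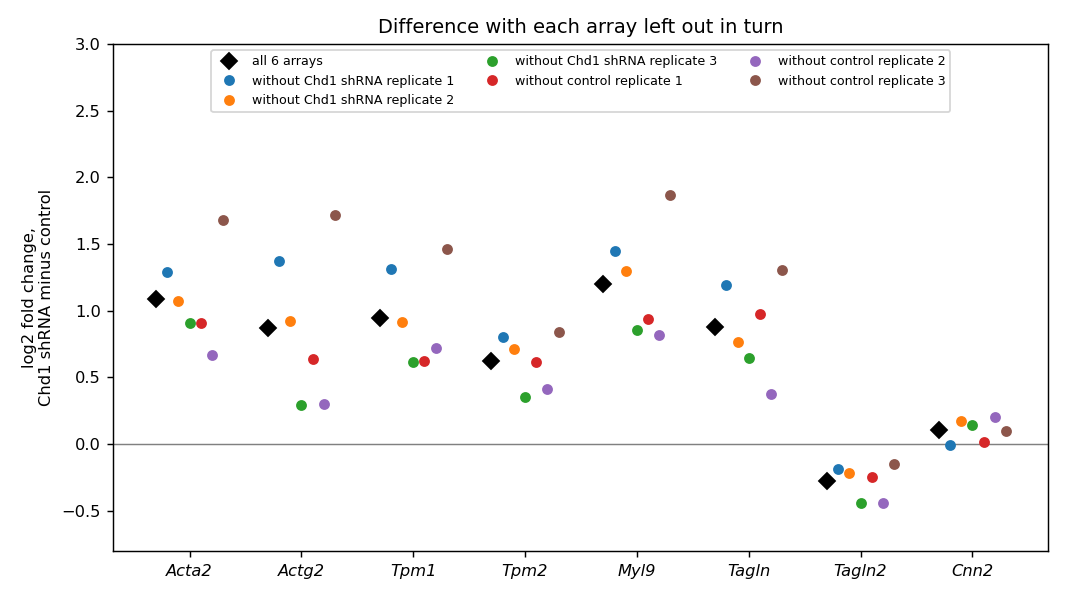
Log2 fold change, Chd1 shRNA minus control, of each tested member with all 6 arrays (black diamond) and with 1 array left out (coloured circles). The 6 genes from Acta2 to Tagln stay above 0 and reach their highest value without control replicate 3, 1.87 for Myl9.

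Markers of fibroblasts, the feeder cell type, went with these genes across the arrays. Of 26 fibroblast markers 17 passed the filter, and their median relative level was -0.24, 0.40 and 0.68 in Chd1 shRNA replicates 1, 2 and 3 and -0.59, -0.66 and 0.31 in control replicates 1, 2 and 3. The order of high and low arrays is nearly that of the contractile genes. Their summed normalized intensity ran from 8117 to 17844 in Chd1 shRNA and from 5529 to 12476 in control arrays. Values above 0 were found in 16 of 17 (50.2% of all genes), with a median log2 fold change of 0.67. This list too was chosen with earlier results known, so its counts are descriptions. At an unadjusted p under 0.05 there were 7 of 17, all higher, where 4.6% of all genes were, and 0 passed the adjusted threshold by limma. Col1a1, a chain of type I collagen, had a value of 1.19 (SE 0.41), and Thy1, a surface protein of fibroblasts and other cells, -0.18 (SE 0.25). Probes of Col1a2, Col5a2 and Postn were detected on no array, and that of Pdgfrb on 2. The part of feeder RNA in the contractile values was not tested. Pluripotency markers had a median relative level of 0.11, -0.39 and -0.20 in Chd1 shRNA and 0.31, 0.07 and 0.05 in control arrays. Log2 fold changes were negative in 16 of 19 and above 0 in 3 (50.2% of all genes), with a median of -0.34. In 3 of the 19 markers the groups did not overlap and were lower, as in 9.18% of all genes, and in 0 they did not overlap and were higher. At an unadjusted p under 0.05, 5 of the 19 markers were lower, where 6.33% of all genes were, and 0 higher. The summed intensity of these markers ran from 60206 to 70145 in Chd1 shRNA and from 70533 to 79170 in control arrays. Such a sum follows the brightest probes more than the list as a whole. Dppa5a, named here for its brightness, had mean log2 intensities of 15.11 in Chd1 shRNA and 15.14 in control arrays, nearly equal in the groups. Esrrb, also bright, had 13.26 in Chd1 shRNA and 13.70 in control arrays. Which genes made up the difference in the sum was not tested.

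**Figure D4:**
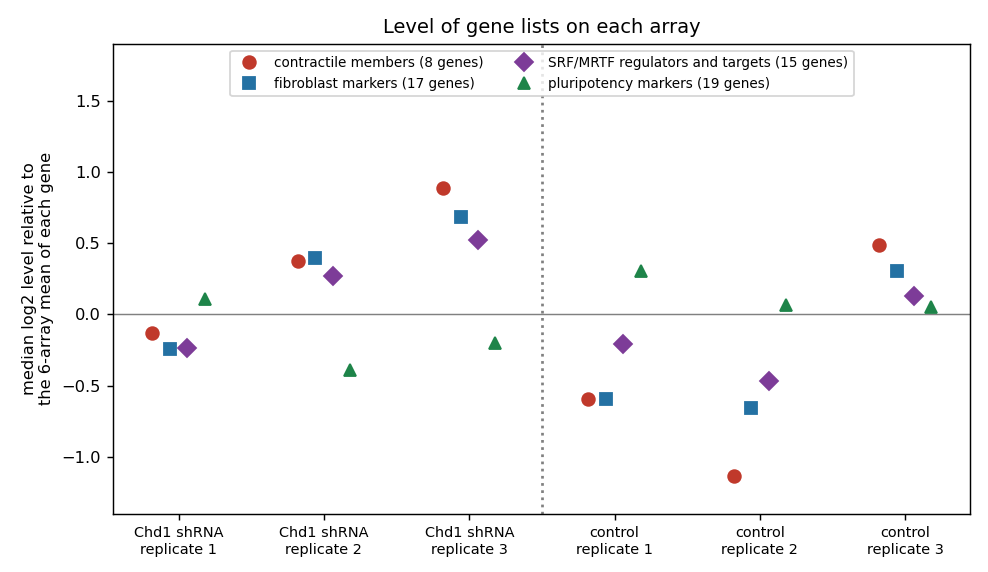
Median log2 level of 4 gene lists on each array, relative to each gene's 6-array mean, with Chd1 shRNA left of control. Contractile members and fibroblast markers are lowest in control replicates 1 and 2 (-0.59 and -1.13 for the members) and highest in Chd1 shRNA replicate 3 (0.89).

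Markers of mature smooth muscle were split in direction. Of 12 such genes 6 passed the filter, 3 with values above 0 and 3 below, and their median log2 fold change was -0.01. Smtn, which encodes smoothelin, had a value of 0.04 (SE 0.17) and Des, the muscle intermediate filament gene, -0.07 (SE 0.20). Myh11, the smooth muscle myosin heavy chain that defines the differentiated cell, was detected on 2 Chd1 shRNA arrays and no control array, and Lmod1, an actin nucleator of smooth muscle, on 1 Chd1 shRNA array. Probes of Synpo2, Kcnmb1, Pln and Rgs5 had no detection. Of 12 heart and skeletal muscle markers 5 passed, with a median of -0.01. In 2 of the 5, named here after their values were seen, the groups did not overlap and were lower in Chd1 shRNA at an unadjusted p under 0.05. Among all genes, 9.18% did not overlap and were lower, and 6.33% had such an unadjusted p with lower values. Both probes were dim, with unnormalized intensities of 133 to 198 for Myl2 and 138 to 197 for Ryr1, beside array medians of 97 to 114. Myl2, a regulatory light chain of heart and slow skeletal muscle, was at -0.98 (SE 0.18, adjusted p = 0.177 by limma), and Ryr1, the calcium release channel of skeletal muscle, at -0.55 (SE 0.18, adjusted p = 0.339 by limma). Of 8 endothelial and blood markers 2 passed, with values of 0.25 and -0.33.

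Other genes of the actin, tropomyosin, transgelin and light chain families had log2 fold changes from -0.39 to 0.56. Of the 8 tested, 7 were above 0 (50.2% of all genes were) and 0 passed the threshold, with a median of 0.11. Actb, the cytoplasmic beta actin gene, had a value of 0.14 (SE 0.17), Tpm3, a tropomyosin gene, 0.08 (SE 0.18), and Myl6, the essential light chain of nonmuscle and smooth muscle myosin, 0.18 (SE 0.20). Tpm4, a tropomyosin gene of nonmuscle cells, was at 0.56 (SE 0.39), with 10.73, 11.72 and 12.09 in Chd1 shRNA and 10.84, 10.43 and 11.61 in control arrays. The transgelin gene of neurons, Tagln3, was at -0.39 (SE 0.24). Actg1 and Cnn3 were not analysed here.

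The myosin motor and its regulators had a median of 0.23 over 9 tested genes, 5 above 0 and 4 below, with 0 past the threshold. Nonmuscle myosin heavy chain genes were at 0.30 (SE 0.33) for Myh9 and -0.14 (SE 0.20) for Myh10, and Mylk, the kinase of the regulatory light chain, at 0.37 (SE 0.28). None of these 3 passed the threshold, and their groups overlapped. The largest values of the list, named after they were seen, belonged to the small GTPase genes Rhob, at 0.98 (SE 0.34, adjusted p = 0.363 by limma, the only unadjusted p under 0.05), and Rhoc, at 0.85 (SE 0.47). Among all genes, 4.6% had an unadjusted p under 0.05 with higher values.

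Srf, the gene of the transcription factor itself, did not share the array order of the members. It was at 8.45, 8.07 and 7.63 in Chd1 shRNA and 8.85, 8.39 and 7.75 in control arrays, a log2 fold change of -0.28 (SE 0.31, adjusted p = 0.748 by limma, n = 3 per group). Its cofactor gene Myocd was near background at -0.08 (SE 0.23), and the probes of the cofactor genes Mrtfa and Mrtfb were detected on at most 2 arrays. The list of SRF regulators and targets had values above 0 in 11 of 15 tested genes (50.2% of all genes), a median of 0.44, and 0 past the threshold. At an unadjusted p under 0.05 there was 1 gene, named for that reason: Pdlim7, an actin-associated PDZ and LIM domain protein, at 0.55 (SE 0.22, adjusted p = 0.427 by limma), with groups that did not overlap. Among all genes, 4.6% had such an unadjusted p with higher values, and 6.87% did not overlap and were higher. Ccn1 and Ccn2, matricellular proteins that SRF and YAP can induce, were at 0.86 (SE 0.40) and 0.62 (SE 0.33). The focal adhesion gene Vcl (vinculin) was at 0.37 (SE 0.25), the actin crosslinker gene Flna at 0.26 (SE 0.32) and Fhl1, a LIM domain protein of muscle, at -0.08 (SE 0.32).

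Transforming growth factor beta induces several of the members in fibroblasts and smooth muscle precursors. All 10 tested genes of its pathway had values above 0 (50.2% of all genes did), with a median of 0.28, and 0 passed the threshold. They ran from 0.02 for Skil to 1.00 for Tgfbr2, and Smad2, Tgfbr1 and Tgfbi were also near 0, at 0.03, 0.05 and 0.06. A relation of this pathway to the members' values was not tested. The ligand genes Tgfb1 and Tgfb3 were at 0.45 (SE 0.27) and 0.61 (SE 0.34), while Tgfb2 was detected on no array.

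The 8 genes outside the group whose pattern over the 6 arrays was most like the members' mean relative level were Brinp1, Snx19, Klhdc2, 9530068E07Rik, Rbms1, L3mbtl3, Crip2 and Tchp, with an r of 0.992 to 0.998. The choice was made for this likeness among 9507 named genes, so the high r is a description. Crip2, a LIM domain protein gene, had 9.63, 10.10 and 10.58 in Chd1 shRNA and 9.26, 9.01 and 10.09 in control arrays, and 9530068E07Rik had a log2 fold change of 0.74 (SE 0.46). Brinp1 was near background, detected on 2 Chd1 shRNA arrays and 1 control array.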

How the data were processed

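RNA of 3 Chd1 shRNA and 3 control samples was compared, with groups read from the transfection label. Numbers within a group follow accession order and pair no samples. The deposited table gives a linear intensity, without background subtraction, and a detection p-value per probe and array, per the file headers. GenomeStudio summarised it, per the submitters' processing notes, version not given in the sources used here. A second deposited table holds intensities normalized by the authors, by a method not given in the sources used here. It served as an alternative.

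Background was corrected by normal-exponential convolution from the detection p-values with an offset of 16. Values were then log2 transformed and quantile normalized (limma 3.58.1, R 4.3.3), which removes shifts of the whole distribution. Differences of dim probes depended on the background step. That of Actg2 was 0.87, against 0.50 with an offset of 50 and 0.36 without background correction. For the bright Acta2 these values were 1.09, 1.08 and 1.06. GEO's annotation gave 1 gene for 34885 probes, several for 18 and none for 10378, and current RefSeq symbols changed 0 of them. The probe with the highest mean stood for a gene, giving 9507 named genes and 2093 unnamed probes. lmFit and eBayes were run over all of them, with Benjamini-Hochberg adjustment and a threshold of 0.05, and again over all 16018 probes. The code was tested on simulated data. Single values also had an exact two-sided permutation test.

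The members and gene lists were chosen with earlier results of these data known. Named genes were all members, a fixed choice from each list, and the 8 genes most like the members. Alternatives changed the offset, background correction, scaling, values, filter, probe choice, variance model, array weights or 1 array at a time.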

Additional observations from a re-analysis of the deposited data

Results flagged for a closer look

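Member probes outside the tests are listed here where they were detected (a detection p under 0.05) on a Chd1 shRNA array and on no control array. Probe ILMN_2482209 of Tpm2 was detected on 2 of 3 Chd1 shRNA arrays, with log2 intensities of 4.61, 4.86 and 4.83 in Chd1 shRNA and 4.36, 4.27 and 4.54 in control arrays. For Cald1, probe ILMN_2804261 was detected on 2 Chd1 shRNA arrays and probe ILMN_2483771 on 1. The single Cnn1 probe, ILMN_1221148, was detected on 1, with 4.32, 4.96 and 4.66 in Chd1 shRNA and 4.33, 4.47 and 4.72 in control arrays. All of these values lie near background, and the differences were not tested.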

How the results depend on the processing

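No paired analysis was possible because the labels give no shared replicate numbers. Each alternative was set against 0 genes, 0 member genes and 0 member probes past the adjusted threshold by limma. Over all genes the count was 2 with median scaling, 1 with 75th percentile scaling, 18 with an intensity trend and robust variance and 37 with array weights, and 0 in the other alternatives. Of the other lists' genes 1 passed with array weights. No member gene or probe passed in any alternative. Median scaling shifted the all-gene median to 0.21 on the log2 scale, so that 91.0% of genes at an unadjusted p under 0.05 were higher, against 42.1%. The 1 member at that unadjusted p became 6 with median scaling, 5 with array weights and 3 with 75th percentile scaling, and 0 without background correction, with the authors' processed values, without a detection filter and with the mean of probes. The unadjusted count of 1268 genes became 2320 without a detection filter and 2572 with array weights, and it ran from 678 to 2022 with 1 array left out. The members' median of 0.88 ran from 0.39 to 1.39 with 1 array left out, was 0.55 with an offset of 50, 0.40 without background correction and 0.41 with the authors' processed values, and 1.25 with array weights. With 1 array left out, Cnn2 ran from -0.0055 (without Chd1 shRNA replicate 1) to 0.20, and the other 7 members kept their direction in every alternative. Among other named genes, median scaling turned Myh10 (0.15), Des (0.25), Srf (0.027), Fhl1 (0.16) and Thy1 (0.12), 75th percentile scaling Des (0.041), the mean of probes Fhl1 (0.046), and array weights Myocd (0.037) and Thy1 (0.063). With 1 array left out, the log2 fold change crossed 0 for Tpm3 (-0.011 to 0.20), Myh9 (-0.050 to 0.63), Myh10 (-0.27 to 0.0059), Smtn (-0.024 to 0.12), Des (-0.18 to 0.066), Flna (-0.017 to 0.61), Fhl1 (-0.42 to 0.44), Thy1 (-0.41 to 0.047), Nanog (-0.048 to 0.29) and Myocd (-0.23 to 0.10). The causes were not tested.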
